A study of Homo sapiens with 24 samples.

Results

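The genes described here are 9 that build or control the HLA class I presentation route: the heavy chains HLA-B, HLA-C, HLA-E and HLA-F, the light chain B2M, the peptide transporter subunits TAP1 and TAP2, the immunoproteasome subunit PSMB9 and the transactivator NLRC5. They were listed by symbol, with earlier results of these data known, and are 9 of 53008 genes to which the transcript rows of the tables could be summed. The study measured stranded, ribosomal RNA-depleted total RNA of UCSD-AML1 and ELF-153, both acute myeloid leukaemia (AML) cell lines. Both grew in RPMI with 20% fetal calf serum and 5 ng/ml GM-CSF, and each line was either left untreated or given 100 nM decitabine (DAC) on 4 consecutive days with a daily change of medium. Cells were harvested at 96 h or 144 h, which gives 8 groups of 3 libraries, 24 in all. The labels call the 3 libraries of a group technical triplicates, so every p-value below measures only the spread between these libraries, and each line stands for itself alone.

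Class I molecules show short peptides from inside the cell to cytotoxic T cells. The proteasome cuts proteins into peptides, the TAP1 and TAP2 heterodimer pumps them into the endoplasmic reticulum, and there they are loaded onto a heavy chain paired with B2M. HLA-B and HLA-C are classical heavy chains, HLA-E is read by natural killer cell receptors, and HLA-F is a less abundant nonclassical chain. NLRC5 is the transcriptional activator that assembles on class I promoters, as CIITA does on class II promoters, and interferons are the best known inducers of the whole set. DAC is a cytidine analogue that becomes part of newly made DNA and binds DNA methyltransferases there, which lowers DNA methylation in dividing cells.

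Promoters of 3 heavy chains, of B2M and of TAP1 are shown first, because NLRC5, interferon and NF-kB factors are known to act on this stretch. RefSeq promoter windows on GRCh38.p14 matched 7 of the 9 members; HLA-E and NLRC5 had no entry. Each line gives the 250 bases upstream of the annotated start, 5′ to 3′ on the gene's strand, with motif matches on either strand in capitals. The motifs searched were an interferon response pattern (TTTCNNTTTC, on the other strand GAAANNGAAA), a GAS pattern (TTCNNNGAA), a kappaB pattern (GGGANNNNCC, on the other strand GGNNNNTCCC) and CCAAT (on the other strand ATTGG).
HLA-B, chr6:31357180-31357429, minus strand: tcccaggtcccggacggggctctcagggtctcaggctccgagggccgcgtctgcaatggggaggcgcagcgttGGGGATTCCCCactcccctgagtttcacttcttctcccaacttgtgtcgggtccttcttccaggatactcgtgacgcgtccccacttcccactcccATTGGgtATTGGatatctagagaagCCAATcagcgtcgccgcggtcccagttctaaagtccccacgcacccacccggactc
HLA-C, chr6:31272093-31272342, minus strand: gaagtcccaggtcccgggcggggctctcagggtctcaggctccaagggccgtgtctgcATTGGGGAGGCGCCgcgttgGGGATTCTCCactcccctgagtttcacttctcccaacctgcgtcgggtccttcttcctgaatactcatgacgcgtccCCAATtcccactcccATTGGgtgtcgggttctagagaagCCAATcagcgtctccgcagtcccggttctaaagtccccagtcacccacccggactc
HLA-F, chr6:29723184-29723433, plus strand: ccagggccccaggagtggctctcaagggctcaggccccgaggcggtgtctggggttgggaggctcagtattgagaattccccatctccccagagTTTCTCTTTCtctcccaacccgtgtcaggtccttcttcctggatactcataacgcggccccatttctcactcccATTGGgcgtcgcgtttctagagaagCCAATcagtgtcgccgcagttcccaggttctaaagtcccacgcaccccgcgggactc
B2M, chr15:44711267-44711516, plus strand: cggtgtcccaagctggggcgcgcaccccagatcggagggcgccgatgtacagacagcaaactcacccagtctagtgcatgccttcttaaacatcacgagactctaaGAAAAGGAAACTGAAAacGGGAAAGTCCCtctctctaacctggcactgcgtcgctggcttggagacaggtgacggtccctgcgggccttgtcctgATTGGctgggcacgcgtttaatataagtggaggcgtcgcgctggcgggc
TAP1, chr6:32853705-32853954, minus strand: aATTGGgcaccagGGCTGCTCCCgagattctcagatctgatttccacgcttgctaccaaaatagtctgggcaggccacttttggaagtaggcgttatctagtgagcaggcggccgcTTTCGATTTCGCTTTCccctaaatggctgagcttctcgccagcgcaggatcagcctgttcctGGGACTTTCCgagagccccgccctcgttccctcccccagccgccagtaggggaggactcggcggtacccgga

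HLA-B held 2 overlapping kappaB matches and 3 CCAAT matches. HLA-C held 2 kappaB matches and 4 CCAAT matches, of which 1 overlaps a kappaB match so that their capitals run together. B2M and the upstream TAP1 window each held 2 overlapping interferon response matches, and HLA-F and TAP2 held 1 each. B2M held 2 overlapping kappaB matches and 1 CCAAT match, TAP1 held 2 kappaB matches and 1 CCAAT match, and HLA-F held 2 CCAAT matches. The only GAS match lay at −189 in the downstream TAP1 window, which is not shown. PSMB9 held 1 CCAAT match. Over 35116 RefSeq promoter windows of the same length, 3.0% held the interferon response pattern, 6.6% the GAS pattern, 22.6% the kappaB pattern and 32.0% CCAAT. The windows of HLA-B, HLA-C, HLA-F and B2M and the upstream TAP1 window held 17, 15, 13, 18 and 16 CpG dinucleotides against a median of 11 over all windows. The downstream TAP1 window held 11, and the TAP2 and PSMB9 windows held more than any of these. The counts of the windows shown lay only moderately above the middle, since many of all windows held as many or more. They are not read as rich in CpG. The TAP1 and PSMB9 starts lie 488 bases apart and point away from each other. A match is a description of the letters only, and methylation was not measured in the tables used. The patterns are fixed, so an element that departs from them is not marked.

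Of the members, 7 lie in the major histocompatibility complex (MHC) on chromosome 6. B2M lies on chromosome 15 and NLRC5 on chromosome 16. In GENCODE 29 on GRCh38 NLRC5 spans chr16:56989485-57083531 (plus strand), B2M chr15:44711487-44718877 (plus) and HLA-E chr6:30489467-30494205 (plus). TAP2 spans chr6:32821833-32838780 (minus) and PSMB9 chr6:32844136-32859585 (plus), across the start of TAP1. Levels below are reads divided by a library's size factor, called scaled reads, and are gene sums over transcript rows. Whether the rows on the primary chromosome or on alternative copies are summed decides what is seen in the MHC. Of 148 protein-coding genes from HLA-F to TAPBP, 117 (79.1%) had no read in any library on primary-assembly transcripts, against 14.6% of 861 genes on the rest of chromosome 6. CLIC1, a widely expressed chloride channel protein, had 0 reads on primary rows and 3883 on rows outside the primary assembly. The RNA helicase gene DDX39B had 0 and 928. Even with all named rows summed, 67 of the 148 genes (45.3%) stayed at 0, among them the tubulin gene TUBB.

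The MHC members followed the same pattern, with TAP2 as the exception. Rows outside the primary assembly held 96.2% of the 9162 HLA-B reads, all of the 1051 HLA-C reads, 84.9% of the 1327 HLA-E reads, and all of the 418 HLA-F, 725 TAP1 and 4 PSMB9 reads. TAP2 had 3.1% of its 161 reads there. B2M (5431 reads) and NLRC5 (8283 reads) have only primary rows. All named rows were therefore summed for the values below, a choice made after seeing the data. A fitted change within a line compares the same rows before and after treatment. Between the lines the rows differed: the HLA-C row ENST00000459694 had reads in UCSD-AML1 alone, and the HLA-F row ENST00000496199 in ELF-153 alone. Level differences between the lines for the MHC members therefore cannot be told apart from how each line's alleles match the reference copies. Since reads were not divided by transcript length, no level is compared between genes.

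**Figure D1:**
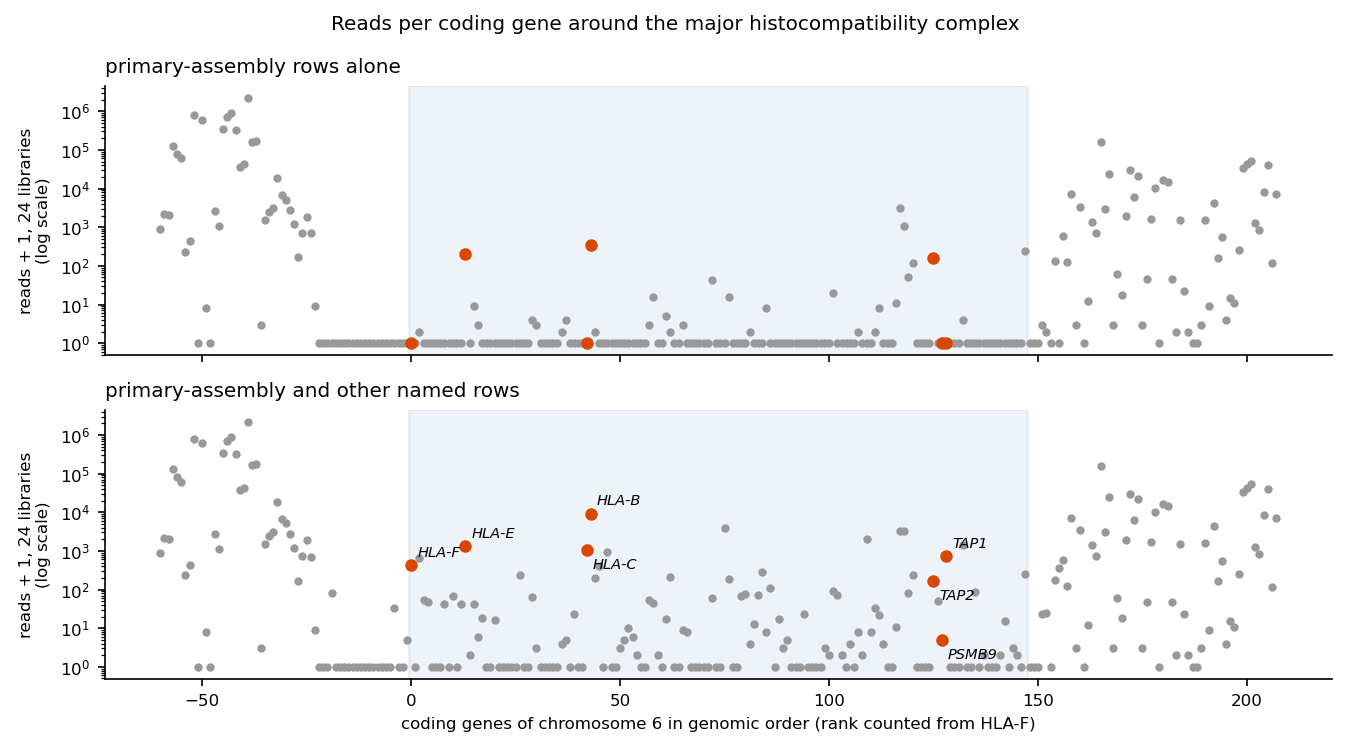
Reads per protein-coding gene (log axis, reads + 1, summed over 24 libraries) along chromosome 6 by gene rank counted from HLA-F, on primary-assembly rows and on all named rows; the shaded span runs from HLA-F to TAPBP and the members are orange. Inside the span 117 of 148 genes sit at 0 on primary rows and 67 do so on all named rows.

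Libraries held 13148881 to 28528757 assigned reads. Mitochondrial ribosomal RNA took 13.1% to 63.8% of them: in UCSD-AML1 49.3% to 51.3% without and 61.7% to 63.8% with DAC at 96 h, 44.5% to 52.1% and 38.7% to 58.4% at 144 h, 13.1% to 35.0% and 37.3% to 49.8% in ELF-153 at 96 h, and 16.6% to 38.2% and 42.8% to 53.6% at 144 h. Of 8 markers of myeloid progenitors or leukaemia lines, at least 7 had reads in every group, MPO being the one at 0 in 5 groups. The 4 T cell markers CD3D, CD3E, CD3G and CD2 summed in UCSD-AML1 to 41.0 to 49.3 scaled reads before and 663 to 1010 after treatment at 96 h, and to 51.3 to 67.2 and 620 to 724 at 144 h. In ELF-153 they summed to 147 to 160 and 390 to 449 at 96 h and to 153 to 187 and 405 to 550 at 144 h; at most 1 of the 4 was at 0 in a group, CD3E or CD3G. The 7 macrophage or dendritic cell markers summed to 1880 to 2090 and 727 to 965 in UCSD-AML1 and to 39.2 to 57.4 and 140 to 176 in ELF-153 at 96 h, and to 1470 to 2390, 360 to 533, 36.3 to 46.2 and 146 to 206 in the same order at 144 h. CD14 and CD163 were among those at 0 in untreated ELF-153. The 4 B cell markers, MS4A1 at 0 throughout, summed to 333 to 376 untreated and 62.1 to 156 treated in UCSD-AML1 over both harvests, and to 141 to 282 and 61.5 to 115 in ELF-153. The 4 fibroblast markers went from 1.19 to 4.42 up to 8.99 to 55.2 in UCSD-AML1, with COL3A1 and DCN at 0, and from 0.0 to 8.19 up to 35.8 to 59.3 in ELF-153. The 8 myeloid or leukaemia markers summed in UCSD-AML1 to 7940 to 8490 untreated and 4250 to 4560 treated at 96 h, and to 6010 to 7180 and 3030 to 3230 at 144 h. In ELF-153 they summed to 3610 to 4050 and 4110 to 4750 at 96 h, and to 3790 to 4030 and 3110 to 3690 at 144 h. These lists were apart between treated and untreated libraries, and their part in the class I values was not tested. Epithelial markers overlapped in ELF-153 at both harvests, and natural killer cell markers there at 96 h. In bulk RNA, fewer cells of a kind and less RNA per cell cannot be told apart.

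After DAC the classical heavy chains HLA-B and HLA-C and the light chain B2M rose in ELF-153 at both harvests. In UCSD-AML1 the heavy chains HLA-B and HLA-E rose at both harvests, and HLA-C and B2M did not pass the test. HLA-F passed in UCSD-AML1 at 96 h and, on few reads, in ELF-153 at 144 h. A gene that passed in 1 line alone need not differ between the lines. The test of that difference called HLA-E at neither harvest, and HLA-C and B2M at 144 h alone. NLRC5 rose in both lines. TAP1 and TAP2 passed the test in neither line, and PSMB9 was close to undetected. A change counts as called where limma's Benjamini-Hochberg adjusted p over all features tested is under 0.05, on log2(scaled reads + 1). In UCSD-AML1 at 96 h, 4 of the 8 members tested were called higher, where 19.7% of all features were called higher, and 0 lower, where 19.6% were. In ELF-153 at 96 h, 4 were called higher (20.0% of all features) and 0 lower (12.7%). In UCSD-AML1 at 144 h, 3 were called higher (20.0%) and 0 lower (26.2%). In ELF-153 at 144 h, 5 were called higher (20.4%) and 0 lower (18.0%). The 2 lines were fitted in 1 model per harvest, over 18778 features at 96 h and 18272 at 144 h. Members' median log2 change in UCSD-AML1 was 0.99 at 96 h and 0.65 at 144 h, beside −0.03 and −0.12 over all features. No median is given for ELF-153, where TAP1 and TAP2 had at most 3 reads a group.

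HLA-B had 118.5, 170.5 and 159.2 scaled reads in the 3 untreated UCSD-AML1 libraries at 96 h and 288.2, 369.8 and 306.0 in the treated ones. In ELF-153 at 96 h it had 145.6, 109.6 and 118.5 untreated and 661.1, 450.0 and 503.9 treated. Treated libraries lay above every untreated one in both lines. The fitted change was 2.16-fold in UCSD-AML1 (log2 1.11 ± 0.21 SE, limma adjusted p = 0.000908) and 4.27-fold in ELF-153 (log2 2.09 ± 0.21, adjusted p = 4.19e-06).

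At 144 h HLA-B had 229.9, 209.0 and 249.3 scaled reads in UCSD-AML1 without DAC and 374.7, 342.0 and 476.2 with it. ELF-153 had 100.2, 155.2 and 142.0 untreated and 1020, 993.7 and 1186 treated. The groups again did not overlap, and treated ELF-153 held the highest HLA-B levels of that harvest. The change was 1.72-fold in UCSD-AML1 (log2 0.78 ± 0.20, limma adjusted p = 0.00666) and 8.11-fold in ELF-153 (log2 3.02 ± 0.20, adjusted p = 1.32e-07). With primary rows alone, HLA-B lost its call in UCSD-AML1 (adjusted p = 0.0768 at 96 h and 0.297 at 144 h), and with its largest row alone it lost the 144 h call (0.103).

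HLA-C, the other classical chain, had 18.87, 30.25 and 33.11 scaled reads untreated and 45.25, 53.95 and 44.68 treated in UCSD-AML1 at 96 h, and 42.44, 33.56 and 35.78 against 57.97, 52.48 and 49.54 at 144 h. Treated libraries were all higher, yet the changes missed the threshold (log2 0.82 ± 0.31, limma adjusted p = 0.0518, and 0.51 ± 0.25, adjusted p = 0.113). Count models and trimmed-mean scaling called both, with adjusted p between 0.0233 and 0.0391. In ELF-153 it had 8.961, 17.41 and 15.49 untreated and 62.51, 47.97 and 56.75 treated at 96 h. The 144 h values were 14.52, 21.32 and 17.08 untreated and 68.55, 79.83 and 104.3 treated. HLA-C thus rose 3.90-fold (log2 1.96 ± 0.31, adjusted p = 0.000286) and 4.56-fold (log2 2.19 ± 0.25, adjusted p = 1.71e-05) in ELF-153, with no overlap of libraries.

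HLA-E, the nonclassical chain seen by natural killer cells, passed the test in UCSD-AML1 and not in ELF-153. UCSD-AML1 had 28.31, 12.83 and 23.65 scaled reads untreated and 79.67, 53.95 and 49.54 treated at 96 h, and 25.64, 36.43 and 31.01 against 46.21, 58.61 and 84.44 at 144 h. It rose 2.82-fold (log2 1.50 ± 0.33, limma adjusted p = 0.00278) and 1.96-fold (log2 0.97 ± 0.28, adjusted p = 0.0119). Both calls were lost on the largest row or on primary rows alone (adjusted p from 0.0706 to 0.272), and the 144 h call without untreated replicate 1 (adjusted p = 0.0505) or treated replicate 3 (0.0559). In ELF-153 the untreated libraries had 45.93, 44.05 and 48.3 at 96 h and 54.44, 58.04 and 54.45 at 144 h. Treated ELF-153 had 87.14, 44.48 and 67.51 at 96 h and 78.61, 108.3 and 63.69 at 144 h, a wider spread than in untreated libraries, and neither change passed (log2 0.47 ± 0.33, adjusted p = 0.301, and 0.54 ± 0.28, adjusted p = 0.139); on primary rows alone the 144 h change was 1.78 (0.00841).

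HLA-F had 14.68, 11.0 and 7.095 scaled reads untreated and 39.34, 86.55 and 50.51 treated in UCSD-AML1 at 96 h. It rose 4.92-fold on the fitted scale (log2 2.30 ± 0.73, limma adjusted p = 0.0226), and the call was lost without untreated replicate 2 or 3 or treated replicate 2 (adjusted p = 0.0546, 0.0799 and 0.089) and with the mitochondrial ribosomal RNA share as a covariate (1.49, 0.198). At 144 h it had 11.5, 23.97 and 14.31 untreated and 28.57, 48.11 and 43.91 treated (log2 1.26 ± 0.55, adjusted p = 0.0798), a change that passed under count models and trimmed-mean scaling (0.0173 to 0.0409). In ELF-153 HLA-F was near the limit of detection. The 3 untreated libraries held 4 reads in all at 96 h and the treated ones 8. At 144 h they held 0 and 24, an at least 8.17-fold higher level against a floor of 3 reads over the group (limma adjusted p = 0.00111).

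**Figure D2:**
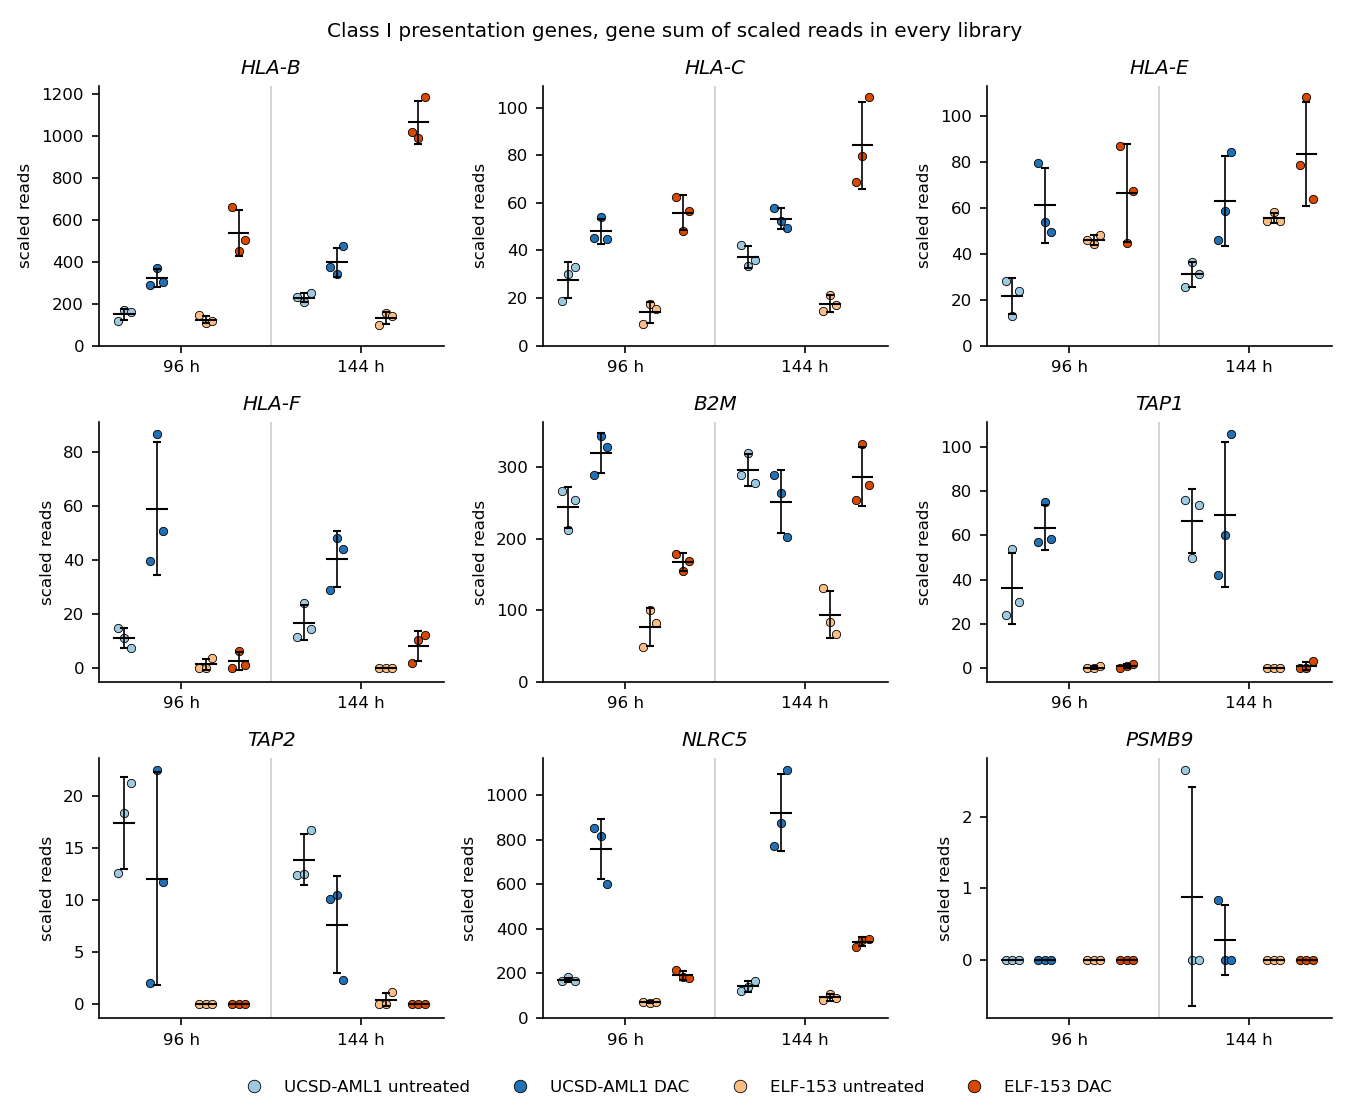
Scaled reads of each member (1 panel a gene, linear axis) in every library, as points with the group mean and SD (n = 3), 96 h left of the grey line and 144 h right of it. HLA-B in treated ELF-153 at 144 h lies between 993.7 and 1186, above all other groups, while TAP1 and TAP2 lie near 0 in every ELF-153 library.

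B2M is the chain that class I heavy chains need to reach the cell surface. In UCSD-AML1 at 96 h it had 266.3, 211.7 and 253.8 scaled reads untreated and 288.2, 342.8 and 327.3 treated; at 144 h it had 289.1, 320.2 and 277.9 untreated and 288.2, 263.3 and 202.7 treated. Neither change passed (log2 0.39 ± 0.24, limma adjusted p = 0.21, and −0.25 ± 0.24, adjusted p = 0.422). In ELF-153 it had 48.17, 100.4 and 82.02 untreated and 179.0, 154.4 and 168.3 treated at 96 h. At 144 h the values were 130.7, 82.91 and 67.27 untreated and 253.2, 332.1 and 274.5 treated. B2M rose 2.25-fold (log2 1.17 ± 0.24, adjusted p = 0.00184) and 3.14-fold (log2 1.65 ± 0.24, adjusted p = 0.000128), without overlap. The mitochondrial ribosomal RNA share rose with treatment in ELF-153 too. With that share as a covariate the 96 h change was 0.58 (adjusted p = 0.189) and the 144 h change 0.95 (adjusted p = 0.00323).

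B2M reads came mostly from 1 row. B2M-208 held 57.3% of them in UCSD-AML1 and 55.5% in ELF-153, so both lines were read through the same leading transcript.

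The transporter genes had more than a few reads in UCSD-AML1 alone. TAP1 had 24.12, 54.08 and 29.96 scaled reads untreated and 57.05, 75.31 and 58.28 treated at 96 h (log2 0.87 ± 0.50, limma adjusted p = 0.181). Treated TAP1 libraries at 96 h all lay above the untreated ones, and 2 of 18 alternative fits called this rise. The TAP1 libraries at 144 h had 76.04, 49.85 and 73.95 untreated and 42.01, 60.36 and 105.8 treated (log2 −0.02 ± 0.56, adjusted p = 0.989). TAP2 had 12.58, 18.33 and 21.28 untreated and 1.967, 22.48 and 11.66 treated at 96 h (log2 −0.91 ± 0.61, adjusted p = 0.258). The 144 h libraries had 12.38, 12.46 and 16.7 untreated and 10.08, 10.5 and 2.252 treated (log2 −0.98 ± 0.52, adjusted p = 0.14). TAP2 treated libraries at 144 h all lay below the untreated ones, but 2 to 14 reads a library stand behind these values.

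ELF-153 had 7 of the 725 TAP1 reads and 1 of the 161 TAP2 reads, so no DAC effect on either could be measured there. PSMB9, a catalytic subunit of the immunoproteasome, had 3 reads in 1 untreated and 1 read in 1 treated UCSD-AML1 library at 144 h and none elsewhere. It fell under the filter (10 scaled reads in 3 libraries) and was not tested, nor were genes sought whose pattern is like it. PSMB8, another immunoproteasome subunit of the same chromosome segment, had 49 reads, all in UCSD-AML1, and was also under the filter. Low values in this segment do not show that transcripts are absent, since 45.3% of its coding genes are listed at 0, TUBB among them.

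**Figure D3:**
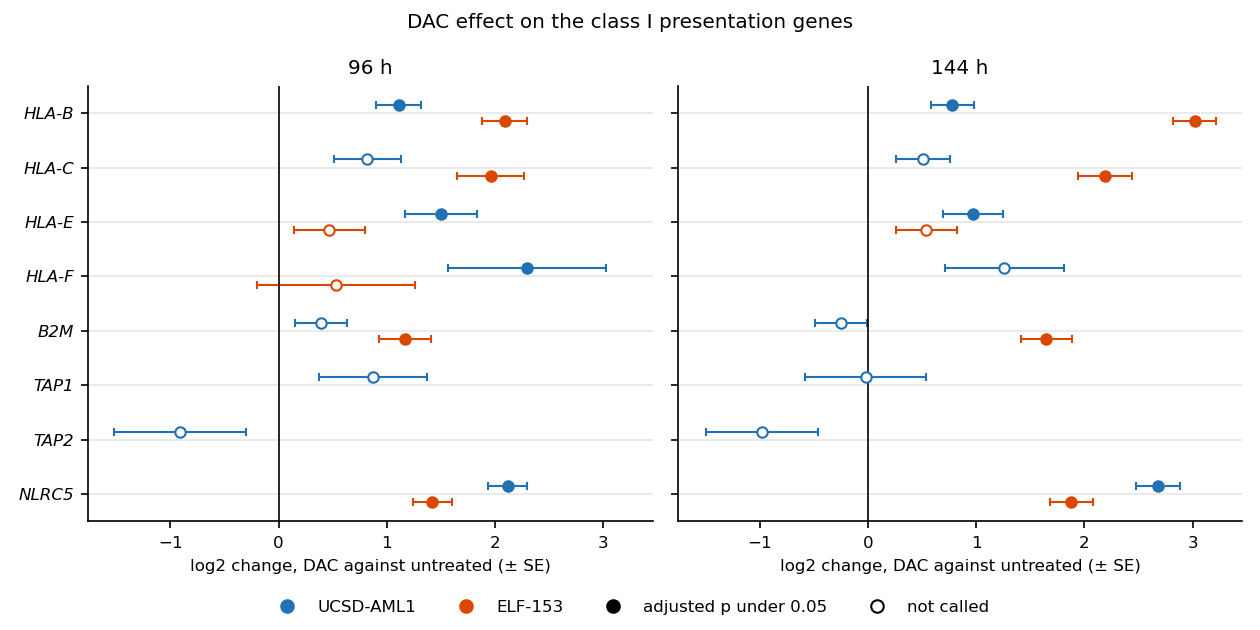
Fitted log2 change with DAC (± SE, limma on log2(scaled reads + 1)) for the members with enough reads, in UCSD-AML1 and ELF-153 at 96 h and 144 h, with filled points for called changes. HLA-B in ELF-153 at 144 h reaches 3.02 and NLRC5 in UCSD-AML1 at 144 h reaches 2.68; B2M is called in ELF-153 and not in UCSD-AML1.

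NLRC5 rose in all 4 comparisons and, among the members tested, had the smallest adjusted p in UCSD-AML1. At 96 h UCSD-AML1 had 166.7, 182.4 and 164.8 scaled reads untreated and 853.8, 816.0 and 602.2 treated. The 144 h values were 122.0, 137.1 and 168.2 untreated and 773.0, 876.5 and 1112 treated. The rise was 4.36-fold (log2 2.12 ± 0.18, limma adjusted p = 9.17e-07) and 6.41-fold (log2 2.68 ± 0.20, adjusted p = 5.07e-07).

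In ELF-153 NLRC5 had 73.93, 67.61 and 71.99 scaled reads untreated and 215.0, 183.1 and 179.0 treated at 96 h. At 144 h it had 81.3, 109.0 and 87.55 untreated and 318.1, 349.6 and 355.8 treated. The rise was 2.67-fold (log2 1.42 ± 0.18, limma adjusted p = 3.61e-05) and 3.68-fold (log2 1.88 ± 0.20, adjusted p = 7.55e-06). Treated libraries of ELF-153 reached the level of untreated UCSD-AML1 or passed it at each harvest, and stayed below treated UCSD-AML1.

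The NLRC5 rows did not rise evenly. NLRC5-227, a protein-coding row, held 190 of 567 NLRC5 reads (33.5%) in untreated UCSD-AML1 at 96 h and 1116 of 2214 (50.4%) in treated cells. In ELF-153 it held 7 of 211 reads (3.3%) untreated and 147 of 620 (23.7%) treated at 96 h. At 144 h its share went from 29.9% to 57.8% in UCSD-AML1 and from 1.7% to 30.2% in ELF-153. In the 3 untreated ELF-153 libraries NLRC5-227 had 0.0, 1.0 and 5.5 scaled reads at 96 h against 52.1, 36.6 and 48.9 treated, and 0.7, 0.0 and 4.3 against 98.7, 104.6 and 105.4 at 144 h.

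The remaining NLRC5 rows rose less. They summed to 73.9, 66.6 and 66.5 untreated and 162.9, 146.5 and 130.1 treated in ELF-153 at 96 h. Fitted alone, NLRC5-227 changed by log2 2.71 (limma adjusted p = 0.00122) in UCSD-AML1 and 4.30 (3.32e-05) in ELF-153 at 96 h, and by 3.70 (7.35e-05) and 5.64 (1.62e-06) at 144 h. On this row ELF-153 had the larger change, the reverse of the gene sum, with the line difference at 1.58 (adjusted p = 0.137) and 1.94 (0.0503), so neither passed. The sources used here do not state how the authors' counting split reads among overlapping transcripts.

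**Figure D4:**
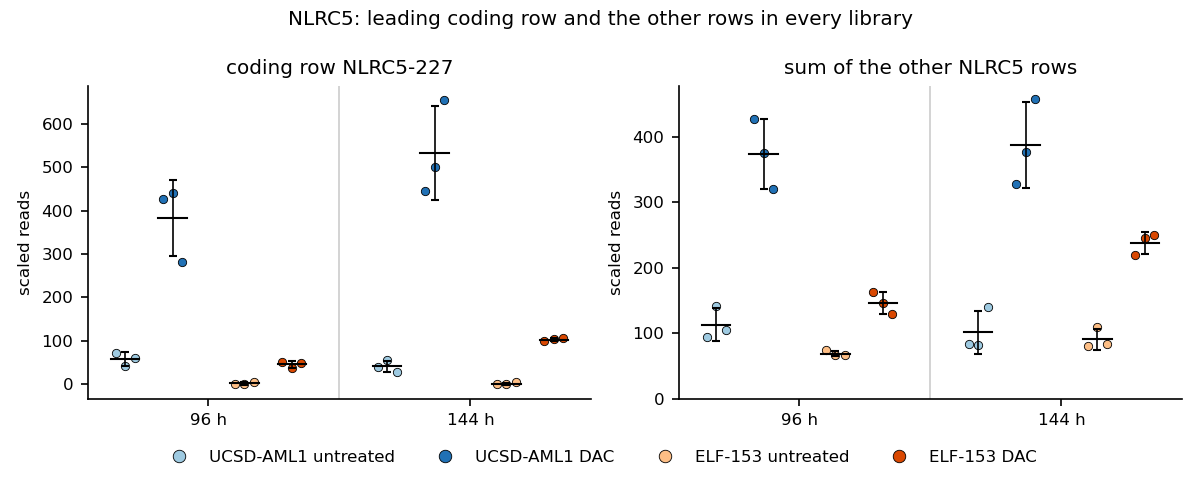
Scaled reads of the protein-coding row NLRC5-227 and of all other NLRC5 rows in every library (n = 3 a group, 96 h and 144 h). NLRC5-227 lies between 0.0 and 5.5 in untreated ELF-153 and between 36.6 and 105.4 in treated ELF-153.

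Whether DAC acted differently in the lines was tested directly, as the change in ELF-153 minus that in UCSD-AML1 within each harvest. At 96 h, 1 of the 8 members tested was called with a larger change in ELF-153, where 16.4% of all features were. With a smaller change 0 were called, where 8.63% were, so neither count is above the background. The member called was HLA-B (difference in log2 change 0.99 ± 0.30, limma adjusted p = 0.0274). Its call was lost under count models, under trimmed-mean scaling and without any 1 of 5 libraries, untreated UCSD-AML1 replicates 2 and 3, treated UCSD-AML1 replicate 1, untreated ELF-153 replicate 3 and treated ELF-153 replicate 1 (adjusted p from 0.0522 to 0.074 without a library and up to 0.288 over the other settings). At 96 h HLA-C (1.15 ± 0.44, adjusted p = 0.0724), B2M (0.78 ± 0.34, 0.102), NLRC5 (−0.70 ± 0.25, 0.0554) and HLA-E (−1.03 ± 0.47, 0.122) missed the threshold. NLRC5 passed under count models and trimmed-mean scaling (−0.89 to −0.90, 0.0193 to 0.0339). HLA-C passed without untreated UCSD-AML1 replicate 1 (0.0475) or untreated ELF-153 replicate 2 (0.0456), and B2M without the latter (1.00, 0.0303).

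At 144 h, 3 members were called with a larger change in ELF-153 (19.3% of all features) and 1 with a smaller one (10.2%), the latter near its background. The larger ones were HLA-B (2.24 ± 0.28, limma adjusted p = 0.000181), HLA-C (1.68 ± 0.36, adjusted p = 0.00551) and B2M (1.90 ± 0.34, adjusted p = 0.00201), 2 heavy chains and their partner. The smaller one was NLRC5 (−0.80 ± 0.28, adjusted p = 0.0455), whose call was lost in 9 of 12 fits without 1 library (adjusted p up to 0.11) and with the mitochondrial share as a covariate (−0.44, 0.294). It held only without treated UCSD-AML1 replicate 1, untreated UCSD-AML1 replicate 3 or untreated ELF-153 replicate 1. HLA-E (−0.43 ± 0.39, adjusted p = 0.421) and HLA-F (adjusted p = 0.126) did not pass; HLA-F passed under count models (0.0247 to 0.0397) and without treated ELF-153 replicate 1 (0.0217). On primary rows alone the HLA-B difference was 1.25 (0.3).

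Levels in the lines before treatment are compared here for B2M and NLRC5, which have 1 set of rows. How reads of overlapping transcripts were counted is not stated, so these are levels of the summed rows. Untreated ELF-153 had less B2M than UCSD-AML1, by log2 −1.71 ± 0.24 at 96 h (limma adjusted p = 3.79e-05) and −1.70 ± 0.24 at 144 h (6.8e-05). B2M means were 76.9 ± 26.5 (SD, n = 3) against 244 ± 28.6 at 96 h and 93.6 ± 33.0 against 296 ± 21.9 at 144 h. After DAC the gap was −0.93 ± 0.24 at 96 h (adjusted p = 0.00572) and 0.19 ± 0.24 at 144 h (0.531). With the mitochondrial share as a covariate the 96 h gaps were −0.90 (0.0829) untreated and −0.30 (0.468) treated. The order of B2M at 144 h therefore had untreated ELF-153 lowest, below the other 3 groups, whose means of 251 to 296 lay close together.

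NLRC5 was also lower in untreated ELF-153, by −1.25 ± 0.18 at 96 h (limma adjusted p = 4.81e-05) and −0.61 ± 0.20 at 144 h (0.019), a call lost without untreated UCSD-AML1 replicate 3 (0.0583) or untreated ELF-153 replicate 3 (0.0598). Over the alternative fits, other row choices among them, this gap ran from −4.61 to −0.98 at 96 h and from −4.28 to −0.49 at 144 h. Its direction held, and its size is not settled. In treated cells the gap was −1.96 ± 0.18 (9.13e-07) and −1.41 ± 0.20 (6.71e-05). Its order at 96 h was untreated ELF-153 (71.2 ± 3.24, SD, n = 3), untreated UCSD-AML1 (171 ± 9.66), treated ELF-153 (192 ± 19.7) and treated UCSD-AML1 (757 ± 136), with the libraries of the middle 2 groups overlapping in part.

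Counting all 8 tested members, untreated ELF-153 against UCSD-AML1 had 1 called higher (22.8% of all features) and 6 lower (34.6%) at 96 h, and 1 higher (28.9%) and 7 lower (22.9%) at 144 h. Treated ELF-153 had 1 higher (20.6%) and 5 lower (21.9%) at 96 h, and 1 higher (29.6%) and 4 lower (14.5%) at 144 h. TAP1, TAP2 and HLA-F passed the filter only through UCSD-AML1 and had to be lower in ELF-153, so nothing is read from these counts. TAP1 had 120 reads in untreated UCSD-AML1 and 1 in ELF-153 at 96 h, and 200 and 0 at 144 h. TAP2 had 59 and 0 reads at 96 h. These reads are given as a description only. Their direction was fixed by the filter, and they cannot be told apart from how each line's alleles match the reference copies.

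HLA-E was the member called higher in untreated ELF-153 (1.13 ± 0.33, limma adjusted p = 0.00985, and 0.84 ± 0.28, adjusted p = 0.0225), and on primary rows the 144 h value was −0.39. The 144 h HLA-E call was also lost under count models and trimmed-mean scaling (0.0502 to 0.0624), on the largest row (0.139), and without untreated UCSD-AML1 replicate 1 or untreated ELF-153 replicate 2 or 3 (0.051 to 0.0847). At 96 h the HLA-E call was lost on the largest row or primary rows (0.14 each, adjusted p = 0.848 and 0.844) and without untreated UCSD-AML1 replicate 2 (0.0552). With the mitochondrial share as a covariate neither HLA-E call held (0.465 and 0.292). HLA-C was lower (−0.94 ± 0.31, adjusted p = 0.0198, and −1.05 ± 0.25, adjusted p = 0.00378). Its 96 h call was lost under count models and trimmed-mean scaling (0.0802 to 0.099), with the mitochondrial covariate (−0.32, 0.735), and without untreated UCSD-AML1 replicate 2 or 3 or untreated ELF-153 replicate 1 (0.0674 to 0.0816). HLA-B did not differ beyond the threshold at 96 h (−0.25 ± 0.21, adjusted p = 0.318) and was lower at 144 h (−0.81 ± 0.20, adjusted p = 0.00456). Over the alternative fits the untreated 96 h value of HLA-B ran from −2.61 to 0.82, so its direction is not settled. After treatment HLA-B was the member called higher in ELF-153 (0.73 ± 0.21, adjusted p = 0.0115, and 1.43 ± 0.20, adjusted p = 7.08e-05), while on primary rows both values were negative (−1.36 and −0.50). The 96 h value was not called with the mitochondrial covariate (0.24, 0.52) or without treated ELF-153 replicate 1 (0.0626), and the untreated HLA-B call at 144 h was lost on the largest row (−0.21, 0.649). These MHC comparisons carry the limit on alleles given above.

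Regulation of class I genes was followed through 20 promoter factors and upstream regulators, all tested. They are not activators alone, since EZH2, EED, SUZ12 and the class II factor CIITA are among them. The list's counts and median are therefore not read as a gain or loss of activators. In UCSD-AML1, 5 were called higher and 6 lower at 96 h, and 5 and 9 at 144 h. Those called lower there included SUZ12, EED and CIITA at both harvests and EZH2 at 144 h. In ELF-153, 6 were higher and 2 lower at each harvest. Of all features, 19.7% were called higher and 19.6% lower in UCSD-AML1 at 96 h, 20.0% and 26.2% at 144 h, 20.0% and 12.7% in ELF-153 at 96 h and 20.4% and 18.0% at 144 h, so several of these counts are near the background. The list's median log2 change was −0.03 and −0.44 in UCSD-AML1 and 0.50 and 0.40 in ELF-153 at 96 h and 144 h, beside −0.03, −0.12, 0.16 and 0.11 over all features. NFKB2, a subunit of the NF-kB factors that bind kappaB sites, rose in each DAC comparison, by log2 1.95 (limma adjusted p = 2.14e-05) and 2.20 (2.98e-05) in UCSD-AML1 and 2.08 (1.26e-05) and 2.22 (2.31e-05) in ELF-153 at 96 h and 144 h. NFYB, a subunit of the factor that binds CCAAT, fell in UCSD-AML1 by 1.69 (0.000147) and 2.19 (2.77e-05) on the log2 scale. It did not pass in ELF-153 (0.12, adjusted p = 0.752, and −0.58, 0.0943).

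IRF9 and STAT2, subunits of the transcription factor complex formed after type I interferon, rose in ELF-153 by log2 2.93 (limma adjusted p = 1.49e-08) and 1.50 (2.84e-06) at 96 h and by 3.23 (3.56e-08) and 1.84 (3.29e-07) at 144 h. In UCSD-AML1 IRF9 changed by 0.54 (0.018) and 0.27 (0.246), and STAT2 by 0.13 (0.509) and −0.40 (0.0273). The IRF9 call was lost without untreated replicate 1 or 2 or treated replicate 2 (0.0513 to 0.0804). The STAT2 call was lost under count models and trimmed-mean scaling (−0.19, 0.241 to 0.338) and without untreated replicate 1 or treated replicate 2 or 3 (0.0727 to 0.095).

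IRF1, an activator of the interferon response element, was called at 144 h, at 0.75 (limma adjusted p = 0.003) in UCSD-AML1 and 0.99 (0.000477) in ELF-153; its 96 h values were 0.10 (0.639) and 0.30 (0.143). CIITA, the class II counterpart of NLRC5, fell in each DAC comparison: by 0.90 (0.0224) and 0.96 (0.0013) in UCSD-AML1 and by 1.50 (0.00114) and 1.42 (6.25e-05) in ELF-153 on the log2 scale. The UCSD-AML1 call at 96 h was lost under count models, trimmed-mean scaling and the mitochondrial covariate (0.0524 to 0.0763) and without untreated replicate 1 or 3 or treated replicate 2 or 3 (0.0723 to 0.104). NLRC5 and CIITA therefore moved in opposite directions in the same libraries.

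**Figure D5:**
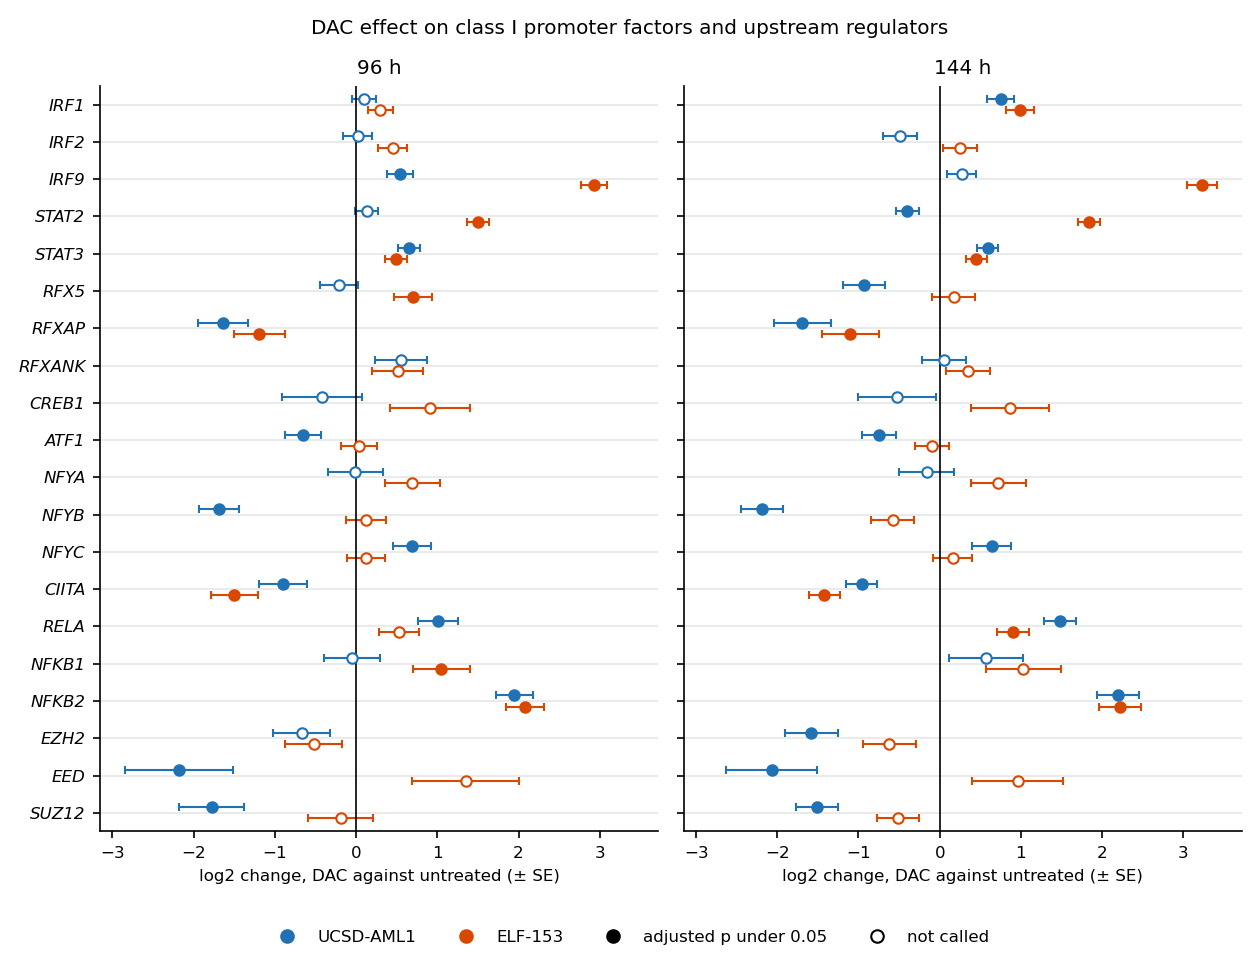
Fitted log2 change with DAC (± SE) of the promoter factors and upstream regulators in UCSD-AML1 and ELF-153 at 96 h and 144 h, filled where called. IRF9 lies at 0.54 and 0.27 in UCSD-AML1 and at 2.93 and 3.23 in ELF-153, while NFKB2 lies between 1.95 and 2.22 in all 4.

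Of 8 interferon genes, only IFNB1 had enough reads to be tested. No DAC effect on it was called, with the smallest limma adjusted p, 0.0541, in ELF-153 at 96 h. It had no read in untreated ELF-153, and 11 and 8 reads in the treated ELF-153 groups at 96 h and 144 h. IFNB1 thus passed the filter only through UCSD-AML1 and had to be lower in ELF-153. Nothing is read from the comparison of the lines for this gene. Its group means in UCSD-AML1 at 96 h were 19.5 ± 7.87 untreated and 28.3 ± 13.6 treated (SD, n = 3). Of 8 tested receptors and kinases of the interferon route, 5 were called higher in each line at 96 h. At 144 h 3 were in UCSD-AML1 and 6 in ELF-153, and none was called lower. Not all of the 96 h calls are firm. The IFNAR2 call at 96 h was lost in 15 of 19 alternative fits in ELF-153 and in 6 of 19 in UCSD-AML1. IFNGR2 in UCSD-AML1 at 96 h was called on 1 untreated and 17 treated reads. Of all features, 19.7% and 20.0% were called higher in UCSD-AML1 and ELF-153 at 96 h, and 20.0% and 20.4% at 144 h. The shares called lower were 19.6% and 12.7% at 96 h and 26.2% and 18.0% at 144 h. The kinase JAK2 rose by log2 1.26 (limma adjusted p = 0.00291) and 1.79 (9.4e-05) in UCSD-AML1 and by 0.86 (0.0305) and 1.25 (0.00142) in ELF-153, where the 96 h call was lost without untreated replicate 2 or treated replicate 1 or 3 (0.0539 to 0.12). The list's median log2 change was 0.65, 0.77, 0.37 and 0.97 beside −0.03, 0.16, −0.12 and 0.11 over all features (UCSD-AML1 96 h, ELF-153 96 h, UCSD-AML1 144 h, ELF-153 144 h). IFNAR1, a type I interferon receptor chain, rose in ELF-153 by 1.07 (0.000506) and 1.01 (0.000727) and JAK1 by 0.80 (0.000965) at 96 h; the IFNAR1 value in UCSD-AML1 was 0.25 (0.299) at 96 h. With the mitochondrial covariate the 96 h ELF-153 values were 0.54 (0.0609) for IFNAR1 and 0.41 (0.0648) for JAK1.

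Other class I and class I-like chains, a list of 10, rose where they were called. At 96 h 2 of 5 tested were called higher in each line, where 19.7% (UCSD-AML1) and 20.0% (ELF-153) of all features were. At 144 h 2 of 6 were in UCSD-AML1 (20.0% of all features) and 3 of 6 in ELF-153 (20.4%). The shares of all features called lower were 19.6% and 12.7% at 96 h and 26.2% and 18.0% at 144 h. MR1, which presents microbial metabolites, rose in each DAC comparison, by 2.00 (limma adjusted p = 4.94e-07) and 1.30 (0.000221) in UCSD-AML1 and 1.26 (3.39e-05) and 1.55 (5.08e-05) in ELF-153. FCGRT, the heavy chain of the neonatal Fc receptor, which also pairs with B2M, rose in ELF-153 by 3.51 (0.000109) and 3.13 (4.59e-06). In UCSD-AML1 it was called at 96 h (1.39, adjusted p = 0.0402), a call lost without any 1 of the 6 libraries (0.0564 to 0.112). The pseudogene HLA-K was called in UCSD-AML1 at 144 h on 8 reads against 0, a call lost without any untreated replicate or treated replicate 2 or 3 (adjusted p from 0.0671 to 0.18).

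Of 11 tested genes of peptide loading and trimming, UCSD-AML1 had 0 called higher and 2 lower at 96 h and 1 and 3 at 144 h. For ELF-153 the numbers were 3 higher and 2 lower at 96 h and 2 and 1 at 144 h. Of all features, 19.7% were called higher and 19.6% lower in UCSD-AML1 at 96 h, and 20.0% and 26.2% at 144 h. In ELF-153 the shares were 20.0% and 12.7% at 96 h and 20.4% and 18.0% at 144 h. Several of the counts are near this background, and nothing is read from them about the list. The peptidase THOP1 fell in each DAC comparison, by 1.15 (limma adjusted p = 0.00133), 1.22 (0.00102), 1.27 (0.0101) and 1.70 (0.00186) in UCSD-AML1 and ELF-153 at 96 h and then at 144 h. Its 144 h calls were lost on the largest row alone (0.126 and 0.0681), in UCSD-AML1 without retained-intron and processed transcripts (0.0852) and in ELF-153 with the mitochondrial covariate (−0.82, 0.128). ERAP2, which trims peptides in the endoplasmic reticulum, fell in UCSD-AML1 by 1.75 (0.00352) and 2.46 (0.00369), calls lost on the largest row alone (0.0776 and 0.0716). The chaperone CALR rose in UCSD-AML1 at 144 h by 1.14 (0.000859), a change of −0.21 when retained-intron and processed transcripts were left out. The chaperone PDIA3 rose in ELF-153 by 1.21 (0.0094) and 1.61 (0.00196), and LNPEP by 1.24 (0.00778) and 1.35 (0.0143); with the mitochondrial share as a covariate none of these 4 passed, and LNPEP at 144 h lost its call without untreated replicate 2 or 3 or treated replicate 2 (0.0545 to 0.0599). TAPBP, the tapasin gene, had group means of 6.67 to 16.4 scaled reads and was called in no comparison.

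Core subunits of the proteasome, which supplies the peptides, fell in UCSD-AML1 where they were called. Of 13 tested constitutive core subunits, UCSD-AML1 had 8 called lower and 0 higher at 96 h and 7 and 0 at 144 h. Of all features, 19.6% were called lower and 19.7% higher there at 96 h, and 26.2% and 20.0% at 144 h. ELF-153 had 1 lower and 2 higher at 96 h and 4 and 1 at 144 h. Over all features its shares were 12.7% lower and 20.0% higher at 96 h, and 18.0% and 20.4% at 144 h. The ELF-153 counts at 96 h are not above this background. PSMB2 fell in each DAC comparison, by 1.08 (limma adjusted p = 0.000189), 0.78 (0.00263), 0.97 (0.000298) and 1.50 (7.5e-06) in the same order; in ELF-153 at 96 h it was not called with the mitochondrial covariate (−0.39, 0.164). The PA28 regulator genes PSME2 and PSME1 fell in UCSD-AML1 at 96 h by 1.05 (0.00198) and 0.75 (0.0377). The PSME2 call was lost without retained-intron and processed transcripts (0.13), and the PSME1 call was lost under count models and without untreated replicate 1 or 2 or treated replicate 2 or 3 (0.0692 to 0.154). POMP, the proteasome maturation factor, was called higher in ELF-153 at 96 h on 7 untreated and 31 treated reads, a call lost under count models and without untreated replicate 1 or 3 or treated replicate 1 or 2 (0.0728 to 0.139). None of the 5 tested genes of that list was called at 144 h. The median log2 change of the core subunits was −0.68, −0.10, −0.87 and −0.26 in the same order as above.

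Across the 12 libraries of a harvest, HLA-B and HLA-C went together (Pearson r 0.87 at 96 h and 0.95 at 144 h on log2(scaled reads + 1)), while HLA-B and B2M had r 0.37 and 0.60. B2M and NLRC5 had r 0.83 and 0.50. These points share lines and treatments and are given as a description. Among 17816 other genes tested at both harvests, those most like B2M by the smaller of its 2 correlations were RNF139-AS1 (0.972 and 0.968), SLFN14 (0.981 and 0.968) and GUCY1B1 (0.963 and 0.967). Those most like NLRC5 were AC008763.1 (0.985 and 0.978), PTGS1 (0.977 and 0.978) and WNT11 (0.993 and 0.977).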

How the data were processed

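The values used are the authors' deposited signal per transcript, reads divided by a library's size factor, scaled separately in 1 table per harvest. Per the submitters' processing notes, STAR, TopHat2, HTSeq, FastQC, DESeq2 and the build hg19 were used; versions and roles are not stated. Recovered reads were whole for 100% of non-zero values (tolerance 0.01). GENCODE 29 named 92.2% of 204940 transcript rows: 181859 in its primary assembly and 7159 outside it through its HGNC metadata. GRCh38 annotation served for names and RefSeq for promoters only; the builds differ.

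Gene sums were tested as log2(sum + 1) in R 4.3.3 by limma 3.58.1, with 1 mean per group fitted to the 12 libraries of each harvest (trend and robust), for features with 10 scaled reads in 3 libraries, with Benjamini-Hochberg adjustment. There were 10 comparisons and none between harvests. Alternatives used edgeR 4.0.16 and DESeq2 1.42.0 on the recovered reads, trimmed-mean (TMM) scaling, pseudocounts of 0.5 and 8, an open filter, other row sums, the mitochondrial ribosomal RNA share as a covariate, the 6 libraries of 1 line, a replicate block and leaving out each library. The fit was tested on simulated data. The repeat-element table was not used here.

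The members and the 7 further lists (78 genes) were chosen with earlier results of these data known. Named from those lists were, per DAC effect, genes with the 2 smallest adjusted p among those called, and IRF1, PSMB8, TAPBP and CIITA; further names were chosen after their values were seen. A listed gene is not reported here. Genes most like B2M and NLRC5 were ranked by the smaller of 2 Pearson correlations. Replicate numbers were checked for pairing by correlating same-numbered libraries' deviations. All 3 pairs passed 0.1 in UCSD-AML1 at 144 h (0.13, 0.12 and 0.26) and not in the other 3 settings. The floor of 3 reads covers counting error only.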

Additional observations from a re-analysis of the deposited data

Results flagged for a closer look

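The response to DAC differed between the lines by the test of the difference itself for HLA-B (ELF-153 minus UCSD-AML1, log2 0.99 at 96 h and 2.24 at 144 h), HLA-C (1.68 at 144 h) and B2M (1.90 at 144 h), all larger in ELF-153. NLRC5 differed the other way at 144 h (−0.80). The HLA-B value at 96 h and the NLRC5 value lost their calls under several settings given with the results; the other 3 kept theirs in each fit without 1 library.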

How the results depend on the processing

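The number of members called in the DAC effects was 4 (UCSD-AML1, 96 h), 4 (ELF-153, 96 h), 3 (UCSD-AML1, 144 h) and 5 (ELF-153, 144 h). With the replicate block these counts were 4, 4, 3 and 5, and the block changed no count of members called. Without 1 library they ranged from 3 to 4, 4 to 4, 2 to 3 and 5 to 5. The range was 5 to 7 and 6 to 8 for untreated lines at 96 h and 144 h, 5 to 6 for treated lines at each harvest, and 0 to 3 and 3 to 4 for the line difference. On primary-assembly rows alone, added after seeing the data, the counts were 1 in UCSD-AML1 at each harvest, 4 for untreated lines at each harvest, 3 and 2 for treated lines, and 0 and 2 for the line difference, because MHC members then had few reads. edgeR with TMM or RLE, DESeq2 and TMM in limma each called 5 in UCSD-AML1 at 144 h. With the mitochondrial share as a covariate, 3 were called between untreated lines and 2 for the line difference at 96 h; a pseudocount of 8 called 3 there. The cause of these was not tested.

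Of values called under either setting, directions turned for 7 values from 5 genes, and HLA-F in ELF-153 at 144 h went to 0.0 on the largest row alone. On that row HLA-B between untreated lines at 96 h was 0.82, and the NLRC5 line difference 1.94 at 144 h; at 96 h, called under neither, it went from −0.70 to 1.58. On primary rows HLA-E between untreated lines at 144 h was −0.39, and HLA-B between treated lines −1.36 and −0.50. Without retained-intron and processed transcripts, STAT2 and CALR in UCSD-AML1 at 144 h were 0.54 and −0.21. Of the 3 genes most like NLRC5, 2 stayed with a pseudocount of 8.

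TMM in limma moved the median of all features by 0.12, 0.24 and −0.18 (UCSD-AML1 effect, untreated lines and line difference at 96 h) and by 0.18, −0.12, −0.37 and −0.21 (UCSD-AML1 effect, untreated, treated and difference at 144 h). The percentage of calls that were higher went from 39.7 to 50.3 (untreated, 96 h), 65.6 to 53.4 (difference, 96 h), 43.3 to 53.9 (UCSD-AML1, 144 h), 67.2 to 47.5 (treated, 144 h) and 65.5 to 52.1 (difference, 144 h). With the mitochondrial covariate, features called fell from 6138 to 3613 for ELF-153 and from 10785 to 4750 for untreated lines at 96 h, and to 6078 and 2599 for untreated lines and the difference at 144 h. Without 1 library the latter count was as low as 2907, without treated ELF-153 replicate 2. Depth limits HLA-F, TAP1, TAP2 and PSMB9.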
